A study of Mus musculus with 6 samples.

Results

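The 9 genes described here form the core of the Hedgehog signaling pathway as it is read out in a receiving cell: the receptor Ptch1, the transducer Smo, the ligand trap Hhip, the co-receptors Boc and Cdon, the inhibitor Sufu and the Gli transcription factors Gli1, Gli2 and Gli3. They were chosen by symbol, with no measured value in the rule, and are 9 of the 24421 genes in the deposited tables. All 9 had a row in every library and all 9 were among the 18413 genes tested.

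In the absence of ligand, the receptor Ptch1 keeps the membrane protein Smo inactive, and Sufu holds the Gli factors back while Gli3, and to a lesser degree Gli2, are processed into repressors. Binding of a ligand such as Sonic hedgehog to Ptch1, helped by the co-receptors Boc, Cdon and Gas1, releases Smo into the primary cilium, where the Gli factors become activators. Gli1, Ptch1 and Hhip are themselves transcribed in response, so their RNA is widely used as a readout of the pathway, and in the adult forebrain astrocytes are known as receivers of Sonic hedgehog made by neurons.

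The study asked how loss of the transcription factor Sox9 changes mature astrocytes of the mouse olfactory bulb (OB). RNA-seq was made from 3 control and 3 Sox9 KO libraries of cells sorted for the red fluorescent protein TurboRFP, 1 library per mouse. Both groups had the same adeno-associated virus, AAV-GFAP-iCre-P2a-TurboRFP, injected into the OB 4 weeks earlier, so the controls also carried Cre and TurboRFP. KO animals were Sox9 fl/fl, and controls are given as C57BL/6J in the study's results and as Sox9+/+ in its methods, with C57BL/6 as the labelled strain and males used for the sort. The GFAP promoter, an astrocyte promoter, drove Cre and the sort marker from 1 transcript, and cells went straight into lysis buffer without a check by re-sorting, their purity being judged by the authors from cell type markers in the RNA-seq.

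Values are normalized counts, that is reads on a gene divided by 1 size factor per library. The libraries held 18242129 to 86906527 reads on genes, and 1 read was worth 0.395 to 1.58 normalized counts. Sox9 itself fell from 5556 ± 881 to 58.2 ± 5.88 normalized counts (mean ± SD, n = 3 per group), with every KO library below every control. The 10 astrocyte markers were present in all libraries, but all 10 were called lower in KO, and their summed level fell from a range of 453190 to 503934 in controls to a range of 31861 to 40648 in KO. The 8 microglia and macrophage markers were all called higher, with sums of 134997 to 159876 in controls and 469024 to 564793 in KO. No gene of either list was at 0 in either group. The part of these shifts in the Hedgehog results was not tested, and in bulk RNA fewer cells of a type and less RNA per cell cannot be told apart.

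A gene was called changed at an adjusted p under 0.05 (limma with Benjamini-Hochberg adjustment over all genes tested) and a change of at least 1.5-fold. Of the 9 Hedgehog genes, 7 were called lower in Sox9 KO (Ptch1, Hhip, Boc, Cdon, Gli1, Gli2 and Gli3), none was called higher, and Smo and Sufu were not called. This is 77.8% of the genes, where 28.8% of all genes tested were called lower and 22.2% higher. In 8 of the 9, all but Sufu, every KO library lay below every control library, as it did for 34.7% of all genes tested. The opposite order, with every KO library above every control, held for none of the 9 and for 32.4% of all genes tested. The median log2 fold change of the 9 was -2.94, against -0.07 over all genes tested and -2.14 over all genes called lower.

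**Figure D1:**
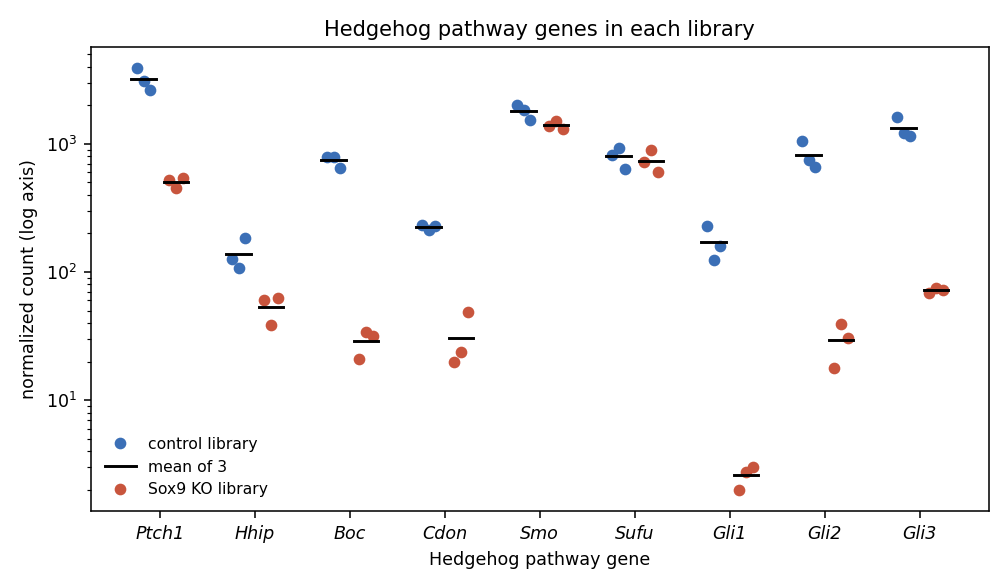
Normalized counts (log axis) of the 9 Hedgehog genes in the 3 control libraries (blue) and the 3 Sox9 KO libraries (red), with black lines for the means. The groups are apart for every gene but Sufu, and the widest gap is that of Gli1, with 123.9 to 226.5 in controls and 1.985 to 3.038 in KO.

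Ptch1 (chr13:63508328-63573598, minus strand), the receptor and itself a target gene, measured 3871, 3089 and 2632 normalized counts in control 1, 2 and 3. In KO 1, 2 and 3 it measured 518.2, 449.6 and 545.4. The lowest control was well above the highest KO library, and the KO libraries lay closer together than the controls. Ptch1 fell to 15.8% of its control mean (log2 fold change -2.65, SE 0.15, adjusted p 1.4e-07 by limma with Benjamini-Hochberg adjustment).

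Hhip (chr8:79965851-80058006, minus strand), which encodes a membrane protein that binds and sequesters Hedgehog ligands, measured 127.1, 106.7 and 184.4 normalized counts in the controls. In KO it measured 60.56, 38.29 and 62.29, so that the groups did not overlap, but the gap between the nearest libraries was smaller than the spread among the controls. Hhip fell to 38.5% of control (log2 fold change -1.35, SE 0.31, adjusted p 0.0033, limma), the smallest change among the 7 genes called lower. After quantile normalization the change was -0.55 with an adjusted p of 0.16 (limma), and Hhip was not called.

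Both co-receptors of the set fell as well. Boc (chr16:44485049-44558897, minus strand), a cell surface protein of the immunoglobulin superfamily, measured 789.1, 792.1 and 647.8 normalized counts in controls and 20.85, 33.95 and 31.9 in KO. All KO libraries were far below the controls, at 3.89% of the control mean (log2 fold change -4.66, SE 0.24, adjusted p 9.0e-08, limma). Cdon (chr9:35421128-35507652, plus strand), its close relative, measured 230.9, 214 and 230.1 in controls and 19.85, 23.69 and 48.61 in KO. The controls differed little among themselves, while KO 3 stood above the other KO libraries and still far below every control. Cdon fell to 13.7% of control (log2 fold change -2.94, SE 0.34, adjusted p 3.0e-05, limma).

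Smo (chr6:29735503-29761365, plus strand), the transducer that Ptch1 restrains, changed little by comparison. It measured 1996, 1837 and 1545 normalized counts in controls and 1384, 1510 and 1308 in KO. The groups did not overlap, but only a narrow gap separated control 3 from KO 2. The log2 fold change was -0.35 (SE 0.12, 95% interval -0.61 to -0.09, adjusted p 0.024, limma), 78.1% of control and less than the 1.5-fold needed for a call. Scaling all libraries to the same total gave -0.59 (adjusted p 0.0014, limma), and Smo was then called lower.

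Sufu (chr19:46396896-46488804, plus strand), the cytoplasmic inhibitor of the Gli proteins, measured 812.5, 935.2 and 641.5 normalized counts in controls. In KO it measured 725.7, 893 and 603.1. The libraries of the groups were interleaved, with KO 3 just under the control range and the other KO libraries inside it. The log2 fold change was -0.11 with a 95% interval of -0.50 to 0.29 (adjusted p 0.62, limma), and changes within that interval were not resolved with 3 mice per group.

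All Gli genes fell, with the lowest fold change for Gli1. Gli1 (chr10:127329882-127341974, minus strand), an activator whose transcription depends on the pathway, measured 226.5, 123.9 and 160.8 normalized counts in controls and 1.985, 2.763 and 3.038 in KO. These KO values rest on 2, 7 and 2 reads, against 155, 180 and 102 reads in controls. Gli1 was nearly gone from every KO library, at 1.52% of the control mean. The log2 fold change was -5.54 (SE 0.41, adjusted p 1.0e-06, limma), and 26 of the 18413 genes tested had a lower one. From the pooled reads, 437 against 11, scaled by the summed size factors of each group, the level was 60.2-fold higher in controls (95% exact interval for counting error alone, 33.3 to 121). Gli1 shares 62 exon bases with Arhgap9 on the opposite strand, 1.24% of its exon length, and the strand setting of the counting is not known here.

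Gli2 (chr1:118834132-119053619, minus strand), the main activator of the pathway, measured 1049, 749.4 and 662 normalized counts in controls and 17.87, 39.48 and 30.38 in KO. KO 2 held more than KO 1 and KO 3, yet all KO libraries lay far below control 3, the lowest control. Gli2 fell to 3.57% of control (log2 fold change -4.80, SE 0.30, adjusted p 3.5e-07, limma). Gli3 (chr13:15463235-15730026, plus strand), the main source of Gli repressor, measured 1609, 1221 and 1151 in controls. In KO it measured 68.5, 74.61 and 72.92, closely alike in all libraries, which is 5.43% of control (log2 fold change -4.17, SE 0.17, adjusted p 2.5e-08, limma).

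Per kilobase of exon, the scale on which levels of different genes can be compared, Smo was highest in controls with 319 normalized counts per kilobase, followed by Ptch1 with 225. Boc (167), Gli3 (138), Gli2 (119) and Sufu (104) came next, and no neighbors in this run differed beyond their spread. Gli1 (34.1), Cdon (29.2) and Hhip (15.4) were lowest, with Gli1 and Cdon overlapping. In KO the order changed at the top and at the bottom. Smo (249) and Sufu (96.3) led, Ptch1 had 35.6, and Gli3 (7.51), Boc (6.49), Hhip (5.92), Gli2 (4.26) and Cdon (3.98) formed a run in which neighbors were not separated. Gli1 was last with 0.52. Lengths were those of all annotated exons merged, and with the longest transcript in their place Sufu came next after Ptch1 in controls, at 176 per kilobase.

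Among the Gli genes the mix shifted as well. Of their summed level per kilobase, Gli1 made up 11.6% ± 1.86 in controls and 4.22% ± 0.51 in KO (SD, n = 3 each). Gli2 made up 40.8% ± 1.72 and 33.8% ± 7.65. Gli3 made up 47.6% ± 1.55 in controls and 62.0% ± 7.74 in KO, with every KO library above every control for Gli3, the reverse for Gli1, and overlapping shares for Gli2. Scaling of a library touches ratios within it only through the pseudocount, which matters for low genes. As such ratios, log2 Gli2 over Gli3 went from -0.71 to -1.34 and log2 Gli1 over Gli2 from -2.28 to -3.02. The latter difference of -0.74 depended on the pseudocount and was 0.13 with a pseudocount of 5, since Gli1 is so low in KO.

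The ratio of receptor to transducer fell. It was taken on counts not divided by exon length, and per kilobase Smo was above Ptch1 in both groups. In controls log2 Ptch1 over Smo was 0.96, 0.75 and 0.77, and in KO it was -1.42, -1.75 and -1.26. Hhip over Ptch1 moved the other way, from -4.92, -4.84 and -3.83 in controls to -3.08, -3.52 and -3.11 in KO. In each of the 4 ratios the groups did not overlap, and each had an exact two-sided permutation p of 0.10 (0.10 after Benjamini-Hochberg adjustment over the 4), the smallest that 3 against 3 libraries can give.

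Because the astrocyte markers fell too, each Hedgehog gene was also expressed per 1000 normalized counts of the 10 summed astrocyte markers. On this scale the median log2 fold change of all genes tested was 3.56, and 1.31% of them were called lower and 82.7% higher. Gli1, Gli2 and Boc were still called lower. Gli1 measured 0.473, 0.246 and 0.355 per 1000 in controls and 0.0623, 0.0680 and 0.0880 in KO (log2 fold change -2.20, adjusted p 0.00048, limma). Gli2 measured 2.19, 1.49 and 1.46 in controls and 0.561, 0.971 and 0.880 in KO (-1.10, adjusted p 0.0022, limma). Boc changed by -0.95 (adjusted p 0.0024, limma). In all of these genes every KO library remained below every control, a larger fall than that of the marker sum. The same order held for Gli3, and its share over all genes tested was not counted on this scale. As deposited, the single markers ranged from -2.72 (Slc1a3) to -5.25 (Fgfr3). Gli2 (-4.80) and Boc (-4.66) lay inside that range, and Gli1 (-5.54) below it.

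Gli3 and Cdon were not called on that scale, with log2 fold changes of -0.44 (adjusted p 0.063, limma) and 0.76 (adjusted p 0.062, limma). The remaining genes were called higher relative to the astrocyte markers. Ptch1 measured 8.09, 6.13 and 5.81 per 1000 in controls and 16.3, 11.1 and 15.8 in KO (log2 fold change 1.10, adjusted p 5.4e-05, limma). Hhip changed by 2.36, Smo by 3.40 and Sufu by 3.64 on this scale. On this scale the 9 genes therefore went in both directions. Slc1a2 alone held 52.9 to 55.4% of the marker sum in controls and 31.3 to 47.5% in KO. With the sum taken without Slc1a2, an alternative added after the data were seen, Gli3 was called lower as well (-0.87, adjusted p 0.00062, limma) and Cdon was again not called (0.33).

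**Figure D2:**
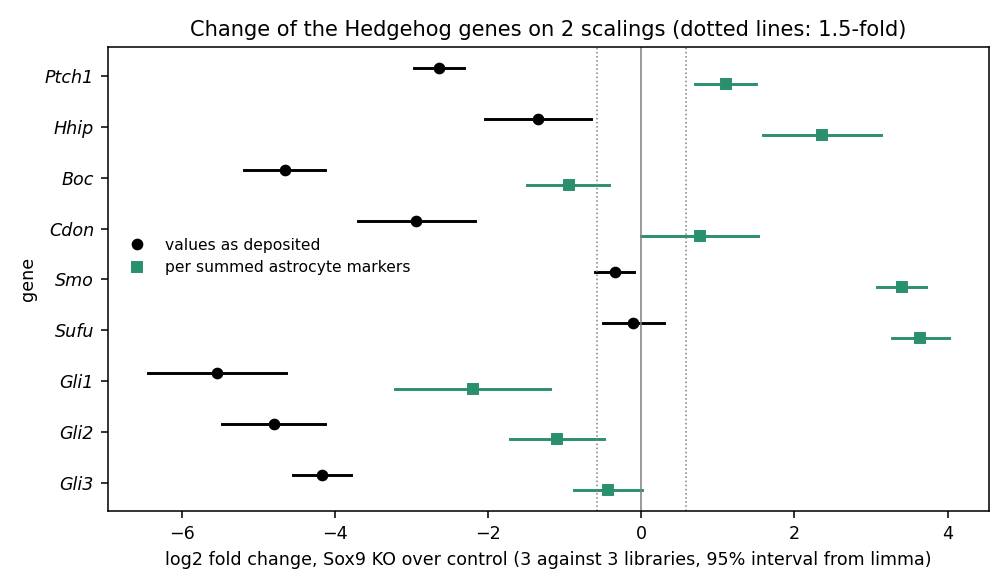
Log2 fold change (Sox9 KO over control, 3 against 3 libraries) of each Hedgehog gene with its 95% interval from limma, for values as deposited (black circles) and per summed astrocyte markers (green squares), with dotted lines at 1.5-fold. As deposited all points lie below 0, with Gli1 at -5.54 and Sufu at -0.11, while per astrocyte markers they spread from -2.20 (Gli1) to 3.64 (Sufu).

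Other cell type markers in the same libraries did not move in 1 direction, and their counts stand beside 28.8% of all genes tested called lower and 22.2% called higher. Of the 8 neuron markers 7 were called lower, with Snap25 and Map2 highest, and of the 7 neuroblast markers all 7, with sums of 7732 to 9492 in controls and 421.9 to 826.6 in KO. All 6 oligodendrocyte markers (among them Mbp) and all 6 markers of oligodendrocyte precursors (led by Olig1 and Olig2) were called lower, with list medians of -1.44 and -3.17. Of 5 markers of border macrophages 3 were called lower and Mrc1 higher, and of 6 endothelial markers 1 was called lower and 2 higher, Flt1 and Kdr. Mural cells had 3 of 6 lower (Pdgfrb and Rgs5 highest), fibroblasts none of 6 in either direction (Dcn and Col1a2 highest), olfactory ensheathing cells 3 of 4 lower (Frzb and Npy highest) and ependymal cells 2 of 4 lower (Foxj1 and Rsph1). The libraries thus held RNA of several cell types in both groups, and the part of any one of them in the Hedgehog values was not tested.

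**Figure D3:**
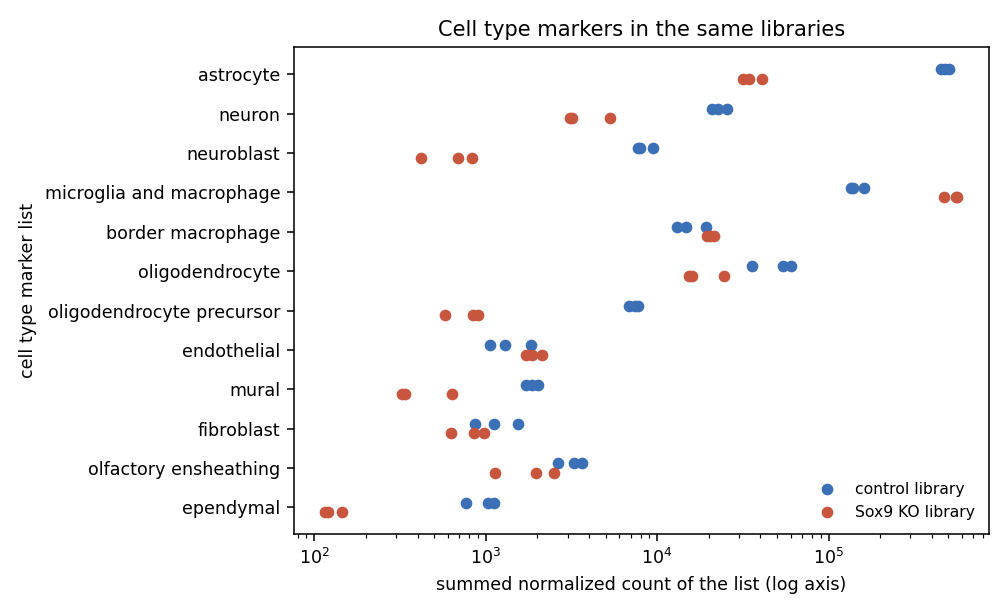
Summed normalized counts (log axis) of 12 marker lists in each library, control in blue and Sox9 KO in red. Astrocyte markers lie at 453190 to 503934 in controls and 31861 to 40648 in KO, and microglia and macrophage markers lie higher in KO than in controls.

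The ligand genes had few reads. Shh, the gene of Sonic hedgehog, measured 24.84, 12.39 and 33.1 normalized counts in controls and 10.92, 18.16 and 0 in KO. The groups overlapped (log2 fold change -1.90, adjusted p 0.12, limma), and single libraries moved the value, to -2.72 without KO 2 (adjusted p 0.045, limma) and to -0.59 without KO 3 (adjusted p 0.39, limma). Dhh averaged 17.8 in controls and 14.8 in KO, and Ihh 3.74 and 1.28, also with overlapping groups. None of the 3 ligands was called with all 6 libraries.

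Of 7 genes that make or release the ligand or are relatives of such genes, 5 were called lower and 1 higher. This count and those of the lists below stand beside 28.8% of all genes tested called lower and 22.2% called higher. The median log2 fold change of the 7 genes was -1.95, which is the value of Disp2, a relative of Disp1. Disp3, a Dispatched relative with a sterol-sensing domain, was the most abundant and fell from 2565 ± 450.5 to 451.3 ± 55.5 (log2 fold change -2.50, adjusted p 2.0e-07, limma). Disp2 fell as well (-1.95), whereas Disp1, which releases lipid-modified ligand from the producing cell, was at 333 and 469.2 (0.48, below 1.5-fold). After quantile normalization Disp1 was called higher (0.84, adjusted p 0.00061, limma), while on the same total it was 0.24. Scube1, a secreted ligand carrier, fell by 1.05 on the log2 scale, but not past the threshold without control 3 (-0.88, adjusted p 0.063, limma) or after quantile normalization (-0.54, adjusted p 0.12, limma). The gene called higher was Hhat (0.97), which palmitoylates the ligand. It was named after its value was seen.

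Among 6 further receptors and co-receptors 3 were called lower and none higher (median -1.16). Gas1, a co-receptor that acts beside Boc and Cdon, measured 888.5, 784.5 and 646.3 in controls and 45.67, 64.35 and 48.61 in KO (log2 fold change -3.85, adjusted p 1.3e-07, limma). Boc, Cdon and Gas1 therefore all fell in the values as deposited, whereas per astrocyte markers Cdon was not called (0.76). Gas1 is not given on that scale, and its -3.85 stands beside -3.75 for the marker sum. Lrp2, another receptor of the list that was named after its value was seen, was not called (0.06, adjusted p 0.97, limma). It had few reads, and KO 3 (112.4) stood far above all other libraries. Gpc3, a glypican that competes for ligand, fell by 1.96 on the log2 scale. Mgrn1, a ubiquitin ligase that limits Smo at the cell surface, had a change of -0.35 and was not called, although every KO library lay below every control. With all libraries scaled to the same total it was -0.59 (adjusted p 0.00046, limma) and called lower.

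Of 9 transducers at the cilium 6 were called lower and 1 higher (median -1.81). Tulp3, which carries receptors into the cilium, fell from 1522 ± 224.2 to 433.3 ± 52.2 normalized counts (log2 fold change -1.81, adjusted p 1.7e-06, limma). Grk2, the kinase that phosphorylates active Smo, rose from 1477 ± 263.8 to 3214 ± 467.3 (1.13, adjusted p 7.7e-05, limma). Iqce and Efcab7, which anchor the Evc and Evc2 complex at the base of the cilium, were not called (0.07 and 0.51), but Efcab7 was called higher after quantile normalization (1.06, adjusted p 0.0017, limma) and without KO 2 (0.72, adjusted p 0.011, limma). Evc and Evc2 themselves, named after their values were seen, fell by 3.34 and 3.47 on the log2 scale, and Kif7, the kinesin that organizes Gli proteins at the cilium tip, by 2.77.

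The 11 genes of Gli kinases, their subunits and ubiquitin ligases had none called lower and 1 called higher (median 0.32). The gene called higher was Cul1, a scaffold of ubiquitin ligases (0.84, adjusted p 1.8e-05, limma), which did not reach 1.5-fold after quantile normalization (0.51). Gsk3b, Prkar1a and Prkacb, all highly expressed genes of kinases or kinase subunits, had changes of 0.14, -0.11 and 0.38. The sign for Gsk3b turned under other scalings. These genes act in many pathways and are made by most cell types.

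Of 12 other genes known as targets of the pathway in some tissue, 11 were tested, 8 were called lower and none higher (median -1.89). The share called lower was 72.7%, against 28.8% of all genes tested. Ccnd2, a cyclin of the G1 phase, fell from 4930 ± 414 to 1181 ± 288.1 (log2 fold change -2.08, adjusted p 1.1e-06, limma). Bcl2, an inhibitor of apoptosis, fell by 1.54 on the log2 scale. Sfrp1, a secreted Wnt antagonist, measured 752.6, 743.9 and 1004 in controls and 57.58, 45.79 and 176.2 in KO, with KO 3 well above the other KO libraries but far below the controls (-3.39, adjusted p 4.4e-05, limma). Ccnd1, another G1 cyclin, was not called (-0.11), with controls of 2679, 4172 and 4653 that spanned all the KO values. The largest fall in the list was that of Nkx2-2, from 315.9 to 15.2 (-4.40), a gene named after its value was seen. Nkx2-2 is also expressed by cells of the oligodendrocyte lineage, whose markers were lower in KO. The part of these cells in its fall was not tested.

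The primary cilium itself, represented by 32 genes of transport and of its base, had 9 called lower, 7 higher and a median of -0.14. These are 28.1% and 21.9% of the list, close to the 28.8% and 22.2% of all genes tested. Kif3a, a motor subunit of transport to the tip, fell from 2244 ± 106.1 to 1029 ± 66.2 (log2 fold change -1.13, adjusted p 3.3e-06, limma). Kif3b, its partner in the same motor, rose from 1489 ± 94.3 to 2503 ± 258.7 (0.75, adjusted p 0.00012, limma), although not by 1.5-fold when all libraries were scaled to the same total (0.50). Dync2h1, the motor of the return transport, fell by 0.80 on the log2 scale, and Cep290, a protein of the transition zone, rose by 1.02. Over all 80 other pathway and cilium genes, 79 were tested, 31 were called lower and 10 higher, and 38 were not called (median -0.39). These shares of 39.2% lower and 12.7% higher stand beside 28.8% and 22.2% of all genes tested, and after quantile normalization 24 were called lower and 15 higher.

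**Figure D4:**
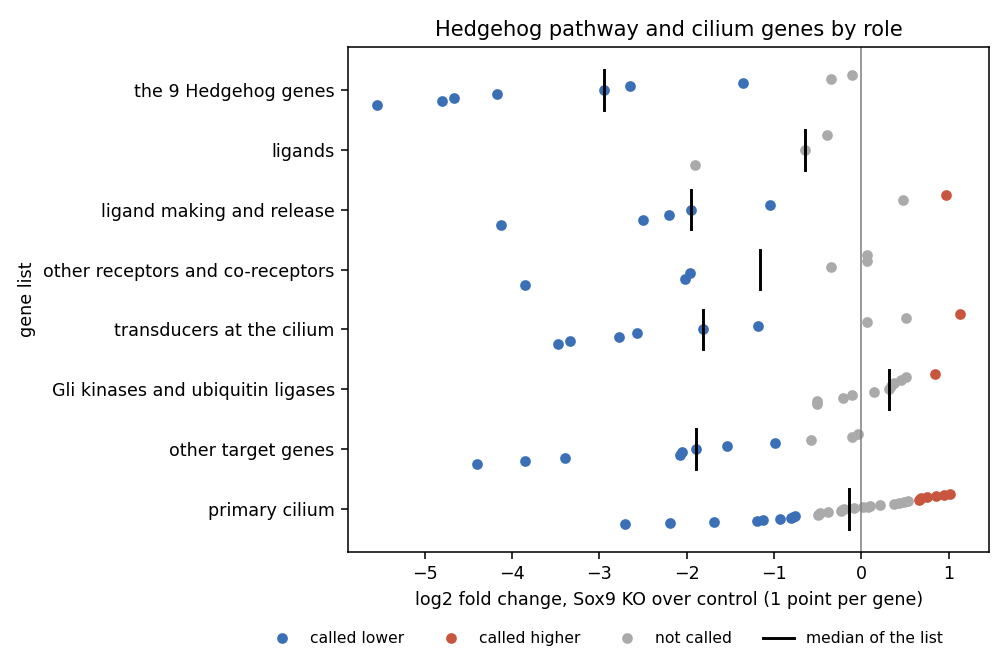
Log2 fold change of each tested gene (Sox9 KO over control) in the 9 Hedgehog genes and in 7 lists of further pathway and cilium genes, colored by call, with a black line at each list's median. Medians run from -2.94 for the 9 Hedgehog genes to 0.32 for the Gli kinases and ubiquitin ligases, and the primary cilium list spreads to both sides of 0.

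The genes whose pattern over the 6 libraries was most like that of Gli1 were Kank1, Acsl3, B3galt1, Itih3 and Lgr4, with Pearson r of log2 values between 0.9996 and 0.9998. Their changes were smaller than that of Gli1, from -2.10 for Lgr4 to -4.31 for Itih3. Such likeness was common, since 789 genes (4.29%) had an r above 0.99 and the 6 points share the 2 groups. Of the other Hedgehog genes, Gli3 (0.998), Gli2 (0.994), Boc (0.994) and Ptch1 (0.992) passed that value, and Sufu had the lowest r, 0.202.

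Promoter windows, from 250 bases before to 50 after the start, were found in a RefSeq table (GRCm38.p6) for 7 of the 9 genes; Gli1 and Boc had no entry. The 250 upstream bases are shown for Gli2 (the most reduced of these genes), Hhip (a readout of the pathway) and Sufu (not called). None of these bases overlaps an annotated exon, which held for Ptch1 and Smo as well. The upstream bases of Ptch1 (chr13:63565736-63565985), Gli3 (chr13:15463473-15463722) and Cdon (chr9:35451826-35452075) lie inside the annotated gene. The windows of these genes are therefore not at the outermost annotated start. Letters are 5′ to 3′ on the strand of the gene, and capitals mark a match to a searched motif.
Gli2, chr1:119053620-119053869, minus strand: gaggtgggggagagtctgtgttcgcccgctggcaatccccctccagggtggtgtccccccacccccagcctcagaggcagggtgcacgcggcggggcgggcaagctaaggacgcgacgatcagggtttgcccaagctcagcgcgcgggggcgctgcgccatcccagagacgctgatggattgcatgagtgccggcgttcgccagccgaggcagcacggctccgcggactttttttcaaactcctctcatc
Hhip, chr8:80058009-80058258, minus strand: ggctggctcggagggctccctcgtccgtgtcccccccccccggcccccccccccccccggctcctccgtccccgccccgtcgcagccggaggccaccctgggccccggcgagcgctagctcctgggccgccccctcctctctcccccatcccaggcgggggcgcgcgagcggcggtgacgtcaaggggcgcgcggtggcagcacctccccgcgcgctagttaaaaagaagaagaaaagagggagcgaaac
Sufu, chr19:46396646-46396895, plus strand: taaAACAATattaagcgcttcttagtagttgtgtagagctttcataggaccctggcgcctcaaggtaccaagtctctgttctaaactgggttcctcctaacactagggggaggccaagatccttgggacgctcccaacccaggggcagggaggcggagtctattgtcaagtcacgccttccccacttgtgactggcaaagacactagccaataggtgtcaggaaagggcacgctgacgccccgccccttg
The core Gli letters GACCACCCA were searched on both strands and were in none of the 7 windows and in 0.253% of 32851 windows of all genes. The Sox letters ACAAAG were in 1 of the 7 (Smo) and in 18.7% of all windows, and AACAAT in 1 of the 7 (Sufu, capitals) and in 10.7% of all windows. The 250 upstream bases of the Hedgehog genes were rich in G and C, with a median of 68.4% against 52.4% for the upstream bases of all windows. The 3 shown held 67.2%, 76.0% and 54.0%. The other 5 windows held none of the searched motifs, which says only that their letters are not in these bases.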

How the data were processed

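RNA-seq of 3 control and 3 Sox9 KO libraries was analyzed. The authors mapped reads to mm10 with STAR (2.5.0a), counted them with Bioconductor packages and divided them by DESeq2 (1.20.0) size factors. Neither the strand setting nor the gene annotation of the counting was stated in what was read here. The deposited signal is these normalized read counts, though labelled RPM, and dividing by the value of 1 read gave whole reads for 100% of values within 0.01 read. Depth was 18242129 to 86906527 reads on genes. Genes with a mean of at least 1 (18413) were tested on log2(value + 1) with limma (3.58.1), so fold changes of low genes are understated, and p-values measure the spread between mice. edgeR (4.0.16) and DESeq2 (1.42.0) on the recovered reads, other pseudocounts, filters and scalings, and omission of each library were alternatives. R 4.3.3, Python 3.11.15 and scipy 1.17.1 were used. Positions and exon lengths are from GENCODE M21 (mm10), and promoters from RefSeq. Methods were tested on simulated data with 200 changed genes, of which 196 were tested, and with the same variability setting for every gene. At an adjusted p under 0.05, without the 1.5-fold rule, limma recovered 148 of the 196 and called 10 unchanged genes. Far fewer genes changed there than were called here, so the scaling of the libraries was not tested by it. The genes and lists were chosen with earlier results of these data known. Named were the 9 genes, Sox9, the ligands, the 4 most abundant genes of each further pathway list, the 2 most abundant of each marker list and the 5 most like Gli1, with other names marked in the text, and a few genes that this rule takes are not reported here.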

Additional observations from a re-analysis of the deposited data

How the results depend on the processing

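The 7 Hedgehog genes called lower stayed called with edgeR, with DESeq2, with either other pseudocount, with either other filter, without the variance trend and without any single library. Replicate numbers did not pair the libraries (correlations of same-numbered deviations -0.092, -0.0142 and -0.0221), and a replicate block again gave 7 Hedgehog genes called lower and 9275 calls over all genes, against 9389. Without single libraries the median of the 9 genes ran from -3.32 (without KO 3) to -2.69, and Sufu from -0.25 to 0.03, while it was 0.00 after quantile normalization. Scaling to the same total, with and without the ribosomal repeat Rn45s, moved the median of all genes by -0.23 and -0.31 (quantile normalization by 0.27), raised the share of calls that were lower from 56.4% to 67.8% and 71.5% (quantile 43.2%), gave Smo -0.59 and -0.68, both called, and left 6 and 4 of the other pathway genes called higher and 38 lower (as deposited 10 and 31, quantile 15 and 24). Without Rn45s 2630 genes were called higher. Hhip was not called after quantile normalization (-0.55). Gli1 over Gli2 was -1.11 with a pseudocount of 0.1 and 0.13 with 5. Per astrocyte markers, which moved the median of all genes by 3.62, Ptch1 was 1.10, Smo 3.40, Gli3 -0.44, Hhip 2.36, Cdon 0.76 and Sufu 3.64, with 3 genes lower, 4 higher and a median of 0.76. Without Slc1a2 in that sum, Ptch1 was 0.67, Smo 2.97, Hhip 1.93, Cdon 0.33 and Sufu 3.21, with 4 lower, 4 higher and a median of 0.33. Mgrn1 was called lower on both totals (-0.59 and -0.68). Among genes not called, the sign turned for Iqce (-0.17 and -0.25 on the totals), Gsk3b (-0.10 and -0.18, quantile -0.33) and Dhh (quantile 0.43), and without single libraries the ranges crossed 0 for Dhh (-0.76 to 0.03), Ihh (-1.44 to 0.27) and Ccnd1 (-0.35 to 0.05). The cause was not tested. In KO, Gli1 rests on 2 to 7 reads per library.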
